A study of Mus musculus with 20 samples.

Results

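The genes described here are Dbp, Tef, Hlf and Nfil3, 4 of the 53311 rows of the deposited count table, chosen by name as the D-box activators and their antagonist. All 4 were among the 13560 genes that had enough counts to be tested. Dbp, Tef and Hlf encode the proline- and acid-rich (PAR) basic leucine zipper factors, which bind a short DNA element called the D-box and activate transcription. Nfil3 encodes a basic leucine zipper protein that binds the same element and represses it. In the circadian clock, BMAL1 and CLOCK drive the PAR genes through E-boxes, while REV-ERB and ROR receptors act on Nfil3 through ROR elements, so that activators and repressor peak at opposite phases. In liver and muscle the PAR factors are known as a route by which the clock reaches output genes.

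The study measured RNA in gastrocnemius, a calf muscle, of mice with the label genotype Cre+:iMSBmal1 fl/fl, which all 20 libraries share, controls included. Vehicle animals and animals with the treatment label iMSBmal1KO, the muscle Bmal1 knockout, were sampled at zeitgeber time 13 (hours after lights on) either unexercised or 1 h past a treadmill bout of 30 min. This gave 4 groups of 5 libraries, called vehicle at rest, vehicle after exercise, knockout-labelled at rest and knockout-labelled after exercise. The driver of Cre, the agent behind the knockout treatment and the age of the mice are not given in the sources used here, and the short label of the exercised knockout group speaks of training where its title and treatment speak of an acute bout.

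Libraries held between 8045154 and 11269812 counts in genes, with 7.55% to 14.96% of them mitochondrial. Skeletal muscle markers (Ckm, Acta1, Des, Mb and Ttn) summed to 53390 to 74670 CPM (read counts per 1000000 of the library total, with TMM scaling) and did not separate the groups. Slow-fibre markers varied far more between libraries, with a summed level of 35.5 to 3539 CPM. All 7 of them were fitted higher at rest in the knockout-labelled group (median log2 fold change 0.66) and lower ones after exercise in knockout-labelled muscle (median -1.49), with none called and overlapping ranges. With a slow-fibre score as a covariate the resting genotype differences of the members were -2.68 for Dbp, -1.15 for Tef, -1.76 for Hlf and 1.34 for Nfil3 on the log2 scale, close to those without it given below. Markers of immune cells, where Nfil3 is also known to act, summed to 14.1 to 38.8 CPM over all libraries, with overlapping ranges, and Ncr1 was at 0 in 3 of the 4 groups. The targeted gene, Arntl (Bmal1), had resting means of 12.3 ± 2.39 CPM (vehicle) and 14.5 ± 1.94 CPM (knockout-labelled), and means after exercise of 14.3 ± 5.71 and 16.4 ± 4.15 CPM (SD, n = 5 each). Its count was thus not lower in the knockout-labelled libraries (log2 fold change 0.24 at rest, edgeR adjusted p 0.725). Which exons were deleted is not given in the sources used here, and a gene's count holds reads from all its exons, so each genotype direction rests on the labels. In bulk muscle, fewer cells of a type and less RNA per cell cannot be told apart.

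The promoters of the 4 genes are shown because the elements above can be looked for in them beside the changes by genotype. Each run covers 250 bases before to 50 bases after a RefSeq start site, from the GRCm38.p6 build. Dbp lies at chr7:45704997-45705296 on the plus strand, Hlf at chr11:90390868-90391167 and Nfil3 at chr13:52980990-52981289, both on the minus strand. Tef has 2 start sites on the plus strand, at chr15:81802423-81802722 and chr15:81811164-81811463. Capitals mark matches on either strand to an E-box (CACGTG), a D-box (TTATGTAA or TTACGTAA), a ROR element core (TAGGTCA or TGGGTCA), a cAMP response element (TGACGTCA) or its part TGACG, which every full element also holds.
Dbp promoter: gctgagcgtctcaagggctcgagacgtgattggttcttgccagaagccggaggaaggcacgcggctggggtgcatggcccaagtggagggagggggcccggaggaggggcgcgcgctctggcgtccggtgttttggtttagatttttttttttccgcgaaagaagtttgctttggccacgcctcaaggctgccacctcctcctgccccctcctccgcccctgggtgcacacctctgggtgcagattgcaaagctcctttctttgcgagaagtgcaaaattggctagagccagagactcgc
Tef promoter, first start site: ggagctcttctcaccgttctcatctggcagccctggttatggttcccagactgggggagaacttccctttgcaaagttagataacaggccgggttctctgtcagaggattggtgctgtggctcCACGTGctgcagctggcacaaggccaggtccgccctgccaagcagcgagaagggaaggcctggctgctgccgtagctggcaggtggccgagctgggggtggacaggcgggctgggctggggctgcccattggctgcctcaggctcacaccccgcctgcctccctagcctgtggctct
Tef promoter, second start site: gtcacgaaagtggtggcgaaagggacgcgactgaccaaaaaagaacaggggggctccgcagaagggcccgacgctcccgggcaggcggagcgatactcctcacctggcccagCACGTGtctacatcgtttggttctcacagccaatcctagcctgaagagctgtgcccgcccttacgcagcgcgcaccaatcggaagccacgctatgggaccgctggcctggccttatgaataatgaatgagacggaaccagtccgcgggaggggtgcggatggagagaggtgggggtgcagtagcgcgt
Hlf promoter: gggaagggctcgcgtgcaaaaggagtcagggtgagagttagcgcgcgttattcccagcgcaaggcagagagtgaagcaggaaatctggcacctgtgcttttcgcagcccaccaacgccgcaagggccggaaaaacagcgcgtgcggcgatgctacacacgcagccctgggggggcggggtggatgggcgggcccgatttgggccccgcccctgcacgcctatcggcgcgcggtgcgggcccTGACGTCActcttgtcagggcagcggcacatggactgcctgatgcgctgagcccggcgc
Nfil3 promoter: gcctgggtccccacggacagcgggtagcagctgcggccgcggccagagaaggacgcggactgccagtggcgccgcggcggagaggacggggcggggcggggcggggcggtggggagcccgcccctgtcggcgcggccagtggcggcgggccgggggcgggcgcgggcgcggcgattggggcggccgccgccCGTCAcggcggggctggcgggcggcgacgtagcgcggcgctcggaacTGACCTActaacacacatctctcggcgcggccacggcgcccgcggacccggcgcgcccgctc
Both Tef windows held an E-box, with its first base at -127 and at -138 from the start site, where 7.15% of the 32851 promoters in the table hold one. The Hlf window held a full cAMP response element at -9, found in 1.79% of promoters. The Nfil3 window held a ROR element core on the other strand at -12, so that the run shows TGACCTA, found in 6.45% of promoters. It also held TGACG on the other strand at -59, shown as CGTCA, found in 20.8%. No searched letters were in the Dbp window, and no D-box was in any of the 5 windows, where 1.06% of promoters hold one. Sites outside these windows, such as in introns, and inexact matches were not searched, so a gene without a match here may still hold the element.

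At rest, the 3 PAR genes were lower and Nfil3 was higher in the knockout-labelled muscle, with no overlap between groups for any of the 4. All 4 passed the test, 3 of them lower and 1 higher. Over all genes tested, 2.06% were called lower and 1.8% higher in this comparison, and 2.99% and 2.8% had groups lying apart in these directions. Dbp, an activator known for its large daily swing, was first of all 13560 genes by p-value, Tef was 4th, Hlf 12th and Nfil3 47th. All libraries came from the same clock time, so a changed daily level and a changed phase or amplitude cannot be told apart.

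Dbp in the 5 vehicle libraries at rest stood at 87.1, 68.7, 74.4, 75.7 and 69.1 CPM. The 5 knockout-labelled libraries at rest stood at 12.3, 10.8, 13.95, 10.8 and 11.3 CPM. The lowest vehicle library was thus far above the highest knockout-labelled one, and the mean was 6.34-fold lower by the fit (log2 fold change -2.66, SE 0.10, edgeR adjusted p 2.80e-14). After exercise the vehicle libraries stood at 64.4, 63.5, 58.7, 56.0 and 64.9 CPM and the knockout-labelled ones at 12.6, 10.4, 10.5, 10.5 and 14.3 CPM. The groups again did not overlap, and the difference was 5.25-fold (log2 fold change -2.39, SE 0.10, edgeR adjusted p 2.62e-13). The exons of Dbp share 539 bases, 18% of its exon length in the GENCODE M21 annotation, with Sphk2 on the opposite strand. Sphk2, a sphingosine kinase gene, fell from 47.9 ± 2.89 to 25.6 ± 1.02 CPM at rest (SD, n = 5 each; log2 fold change -0.90, edgeR adjusted p 3.31e-08), and reads of both genes cannot be told apart there without strand.

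Tef, the thyrotroph embryonic factor gene, was the most abundant of the 3 activators, by counts and per exon length. Its vehicle libraries at rest stood at 303, 311, 337, 340 and 357 CPM, and the knockout-labelled ones at 150, 126, 169, 153 and 140 CPM. The levels lay apart and differed 2.24-fold (log2 fold change -1.16, SE 0.08, edgeR adjusted p 4.88e-09). After exercise, Tef stood at 296, 304, 289, 305 and 323 CPM in vehicle and at 163, 153, 139, 136 and 154 CPM in knockout-labelled muscle. The difference was 2.03-fold (log2 fold change -1.02, SE 0.08, edgeR adjusted p 2.62e-08). An antisense gene, Gm17597, shares 193 bases with Tef exons and had at most 3 counts in any library.

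Hlf, the hepatic leukemia factor gene, was the least abundant on both scales, with 38 to 248 counts per library, so its values are less precise than those of Tef with 1004 to 3467 counts. In vehicle at rest it stood at 24.1, 22.2, 17.8, 23.99 and 26.8 CPM. The knockout-labelled libraries at rest had 6.47, 4.37, 9.30, 6.58 and 6.39 CPM. The groups lay apart by a factor of 3.46 in the fit (log2 fold change -1.79, SE 0.17, edgeR adjusted p 3.43e-07). After exercise, Hlf stood at 14.98, 15.3, 12.9, 11.7 and 18.8 CPM in vehicle and at 8.45, 8.21, 5.69, 9.45 and 7.11 CPM in knockout-labelled muscle. The ranges still lay apart, with a difference of 1.90-fold (log2 fold change -0.93, SE 0.17, edgeR adjusted p 0.00113).

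Nfil3 went the other way. Its vehicle libraries at rest stood at 26.8, 38.4, 33.4, 26.1 and 22.2 CPM. The knockout-labelled ones at rest stood at 94.8, 80.3, 50.5, 72.5 and 81.9 CPM, each above each vehicle library. The rise was 2.58-fold (log2 fold change 1.37, SE 0.17, edgeR adjusted p 3.01e-05). After exercise the picture by genotype differed, with 79.1, 97.5, 106, 125 and 75.7 CPM in vehicle and 99.4, 92.1, 123, 90.7 and 120 CPM in knockout-labelled muscle. These ranges overlapped, and the log2 fold change was 0.12 with a 95% interval from -0.21 to 0.45 (edgeR adjusted p 0.758). After exercise 3 of the 4 members were thus called, all lower, where 3.75% of genes were called lower, 2.67% higher, and 3.59% had groups apart and lower. In this comparison all 5 blood markers had lower fitted values (median log2 fold change -0.99), and Hba-a2, an alpha globin gene that can share reads with its near-identical copy, was called (-1.90, edgeR adjusted p 0.0198). Their summed level ran from 57.7 to 366 CPM in vehicle and from 48.2 to 139 CPM in knockout-labelled muscle after exercise, and their part in the results was not tested.

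**Figure D1:**
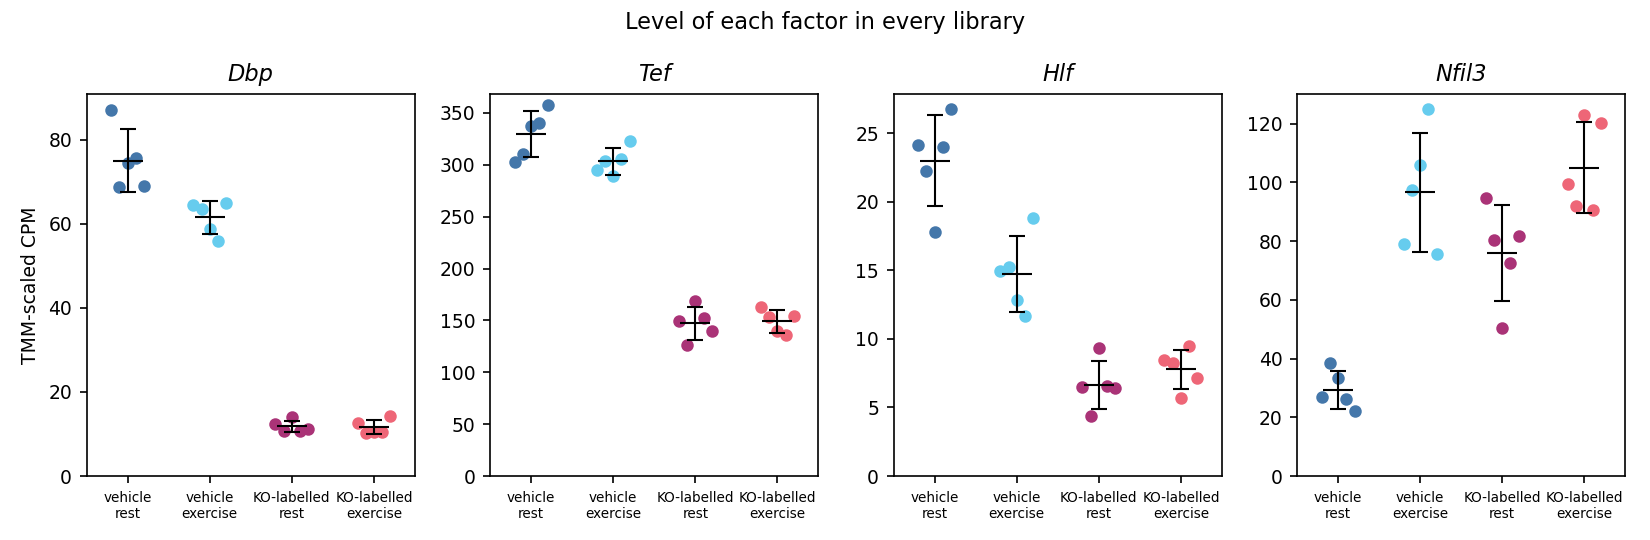
TMM-scaled CPM of Dbp, Tef, Hlf and Nfil3 (linear axes from 0) in each of the 20 libraries, 5 points per group in replicate order, with mean and SD as bars. Dbp, Tef and Hlf are lower in every knockout-labelled library than in every vehicle library, while Nfil3 is lowest in vehicle at rest and the other 3 groups overlap their neighbours.

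The order of the group means differed between activators and repressor. For Dbp the order from low to high was knockout-labelled after exercise (11.7 CPM), knockout-labelled at rest (11.8 CPM), vehicle after exercise (61.5 CPM) and vehicle at rest (75.0 CPM). The lowest pair overlapped and the other neighbours lay apart. For Tef the knockout-labelled means were 147 CPM at rest and 149 CPM after exercise, and the vehicle means 303 CPM after exercise and 330 CPM at rest, where only the step between the genotypes lay apart. Hlf had the same order as Tef, with means of 6.62, 7.78, 14.7 and 23.0 CPM, and again only the middle step lay apart. For Nfil3 vehicle at rest was alone at the bottom (29.4 CPM). Knockout-labelled at rest (76.0 CPM), vehicle after exercise (96.7 CPM) and knockout-labelled after exercise (105 CPM) each overlapped the next.

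Between genes, levels can be compared only per length. The lengths used were those of all exons of a gene, merged over its transcripts in GENCODE M21, which need not be the annotation the authors used. They were 2.99 kb for Dbp, 7.87 kb for Tef, 6.68 kb for Hlf and 2.03 kb for Nfil3. A merged length can exceed that of each single transcript, which lowers the level per kb. This may hold for Tef, with its 2 start sites, so its order against Nfil3 is uncertain. On this scale of mean CPM per kb, vehicle at rest had Tef at 41.9, Dbp at 25.1, Nfil3 at 14.5 and Hlf at 3.44. Nfil3 was thus below both Tef and Dbp there. In vehicle after exercise Nfil3, at 47.7, was above Tef (38.6) and Dbp (20.5). In knockout-labelled muscle at rest Nfil3 stood at 37.5, Tef at 18.7, Dbp at 3.95 and Hlf at 0.991 CPM per kb, and after exercise at 51.8, 18.95, 3.90 and 1.16.

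**Figure D2:**
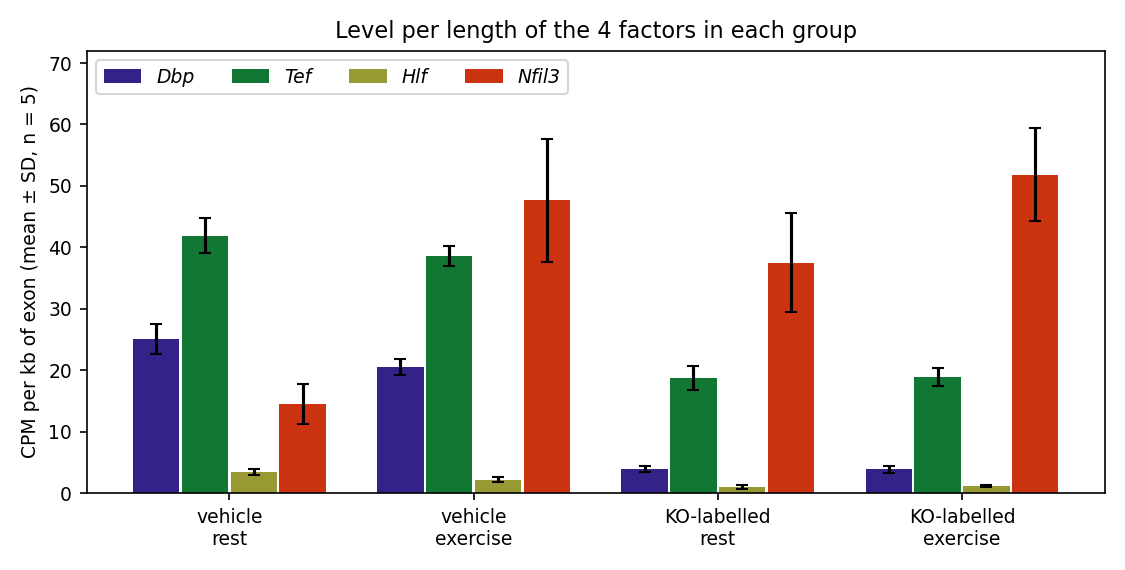
Mean level per length (CPM per kb of exon, linear axis from 0, error bars SD over 5 libraries) of the 4 genes in each group. Nfil3 stands below Dbp and Tef in vehicle at rest, at 14.5, and has the tallest bar in the other 3 groups.

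Exercise was compared next, within each genotype. In vehicle muscle Nfil3 rose 3.28-fold, with no overlap between the rest and exercise libraries, as in 1.18% of genes (log2 fold change 1.72, SE 0.17, edgeR adjusted p 3.58e-05), and was first by p-value of all genes in this comparison. It was the only one of the 4 members called, where 0.605% of genes were called higher and 0.199% lower. The call held with each of the 10 libraries left out in turn (adjusted p 2.67e-05 to 2.65e-04).

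The 3 activators had lower fitted values after exercise in vehicle, and none passed. Dbp had a log2 fold change of -0.29 (SE 0.09, edgeR adjusted p 0.239), although its 5 exercised libraries (56.0 to 64.9 CPM) all lay below its 5 resting ones (68.7 to 87.1 CPM), a separation in this direction that 0.855% of genes had. Hlf had a log2 fold change of -0.64 (SE 0.16, edgeR adjusted p 0.0604), and the ranges of 11.7 to 18.8 CPM and 17.8 to 26.8 CPM overlapped through 2 libraries, vehicle at rest replicate 3 and vehicle after exercise replicate 5. Of 10 fits that left out 1 library, 2 called Hlf, those without 1 of these 2 libraries (adjusted p 0.0395 and 0.0256). It was also called by DESeq2 (adjusted p 0.0128), by limma-voom (0.0421) and with the slow-fibre score as a covariate (log2 fold change -0.68, edgeR adjusted p 0.0143). Hlf stayed uncalled in 14 of 22 alternatives, with an edgeR adjusted p up to 0.193 where 1 library was left out. Tef had a log2 fold change of -0.12 with an interval from -0.28 to 0.04 (edgeR adjusted p 0.762).

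In knockout-labelled muscle none of the 4 members was called after exercise, and neither was any of the genes tested (0 by edgeR, DESeq2 and limma-voom, with 639 at an unadjusted p under 0.05). Nfil3 had a mean of 76.0 ± 16.3 CPM at rest and 105 ± 15.4 CPM after exercise (SD, n = 5 each; log2 fold change 0.47, SE 0.17, unadjusted p 0.0111, edgeR adjusted p 0.9995), and the ranges overlapped. Dbp had a log2 fold change of -0.01 (interval -0.22 to 0.19) and Tef one of 0.02 (interval -0.15 to 0.18), and the sign of each turned under some alternatives. Hlf had one of 0.22 (interval -0.13 to 0.58).

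**Figure D3:**
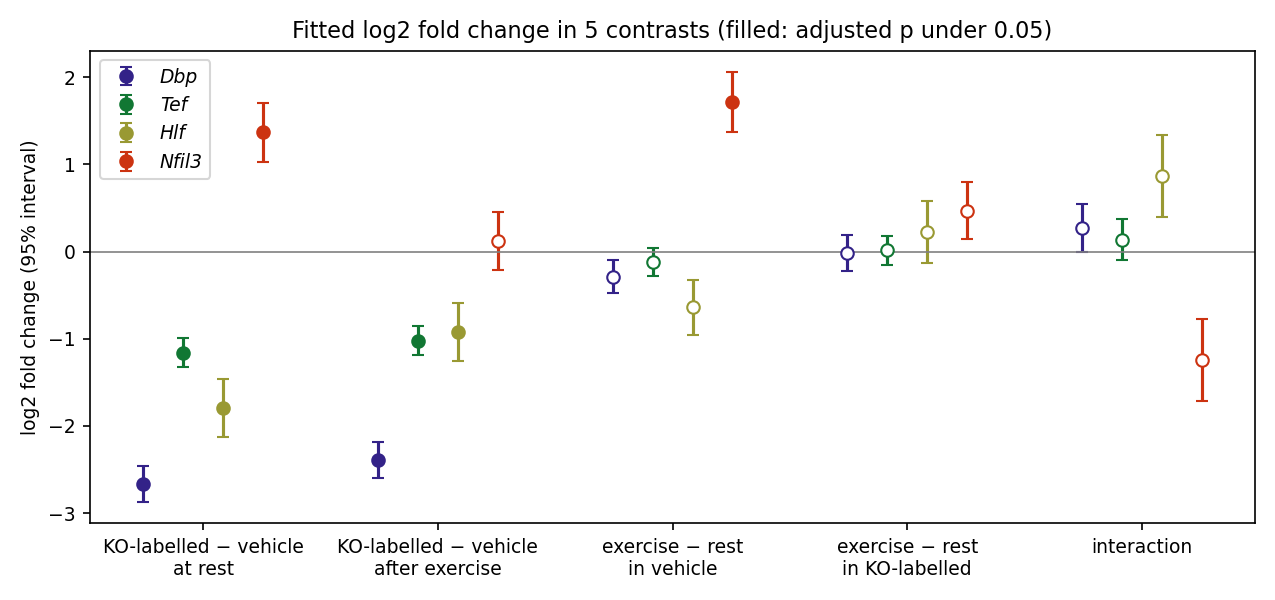
Fitted log2 fold changes of the 4 genes with 95% intervals in 5 contrasts; filled points passed an adjusted p of 0.05. All 4 are filled at rest by genotype, the 3 activators after exercise, and only Nfil3 for exercise in vehicle; no point of the last 2 contrasts is filled.

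Whether the response to exercise differed between genotypes was tested as an interaction, which called 0 of 13560 genes (limma-voom 0, DESeq2 3, and 791 at an unadjusted p under 0.05). Nfil3 had the smallest p-value of all genes, with a log2 difference of -1.25 (SE 0.24, interval -1.72 to -0.78, edgeR adjusted p 0.275). Its exercise response was thus 2.37-fold smaller in knockout-labelled muscle by the fit, without passing. DESeq2 called it (adjusted p 0.00351), and so did edgeR without knockout-labelled at rest replicate 3 (adjusted p 0.0385). Over the other alternatives the adjusted p ran up to 0.762. Hlf ranked 29th, with a log2 difference of 0.87 in the opposite direction (SE 0.24, edgeR adjusted p 0.701). Dbp (0.27, interval -0.01 to 0.55) and Tef (0.14, interval -0.10 to 0.37) had smaller ones. The comparisons by genotype and by exercise share their libraries, so their values are not independent of each other.

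The balance of activator to repressor was also read within each library, as the difference in log2 CPM between each activator and Nfil3. These differences are described with no test. They are not scaled by transcript length, so shifts between groups can be read, but their sign does not tell which gene is higher. For Dbp they ran from 0.83 to 1.69 in vehicle at rest, from -1.16 to -0.22 in vehicle after exercise, from -2.92 to -1.84 in knockout-labelled muscle at rest and from -3.52 to -2.96 after exercise. All 4 groups lay apart in this order, the 2 knockout-labelled ones only narrowly (-2.92 at the lowest at rest, -2.96 at the highest after exercise). How many other genes lay apart from Nfil3 in this way was not counted. For Hlf the vehicle libraries at rest ran from -0.90 to 0.27, and the other groups from -3.40 to -1.99, -4.13 to -2.41 and -4.38 to -3.23, overlapping one another. For Tef the order was the same, from 3.01 to 3.99, 1.29 to 2.09, 0.65 to 1.74 and 0.18 to 0.73. Averaged over the 3 activators, the balance was 1.51 ± 0.39 in vehicle at rest, -0.55 ± 0.42 in vehicle after exercise, -1.72 ± 0.52 in knockout-labelled muscle at rest and -2.12 ± 0.29 after exercise (mean ± SD, n = 5 each).

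**Figure D4:**
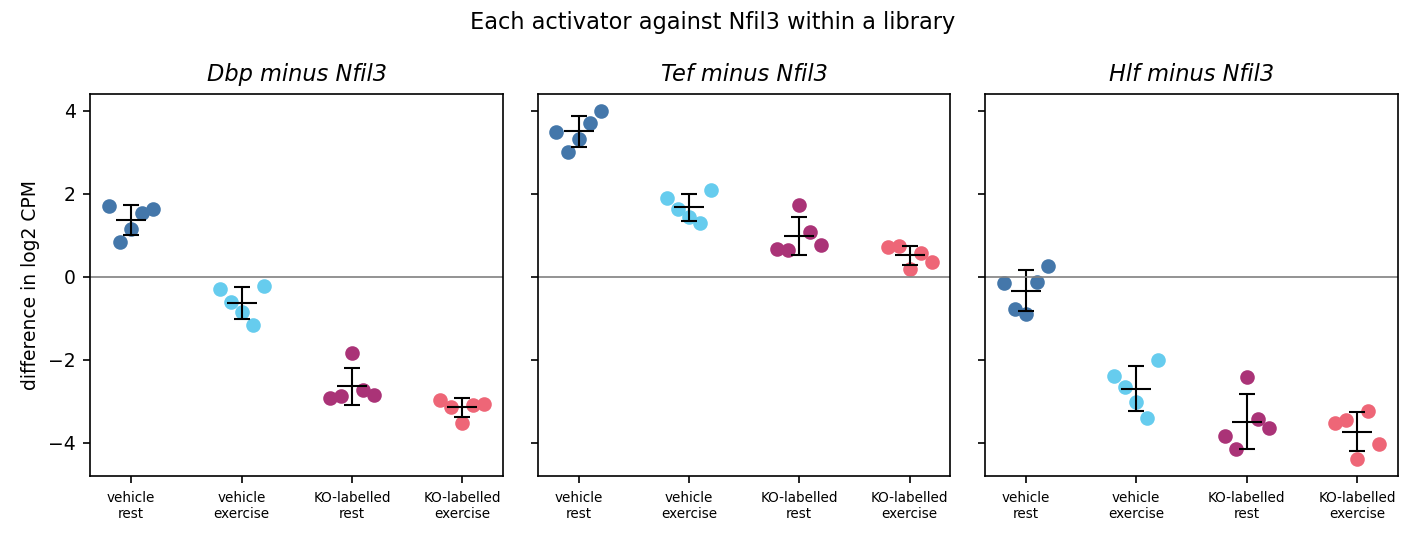
Difference in log2 CPM, not scaled by transcript length, between each activator and Nfil3 in every library (5 points per group, bars mean and SD, linear axis). Vehicle at rest stands highest in each panel, with 0.83 at its lowest for Dbp. The 4 groups lie apart for Dbp, the 2 knockout-labelled ones only narrowly (-2.92 at the lowest at rest, -2.96 at the highest after exercise).

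The activators did not fall in a fixed ratio. The log2 difference between Dbp and Tef was -2.14 ± 0.21 in vehicle at rest and -3.62 ± 0.11 in knockout-labelled muscle at rest, with ranges apart (-2.37 to -1.80 and -3.80 to -3.52). Between Dbp and Hlf it went from 1.70 ± 0.26 to 0.85 ± 0.26, also apart. Between Tef and Hlf it went from 3.84 ± 0.23 to 4.46 ± 0.23, and these ranges overlapped (SD, n = 5 for each value). After exercise the Tef and Hlf difference was 4.36 ± 0.23 in vehicle and 4.24 ± 0.28 in knockout-labelled muscle, so the fitted fall of Hlf was larger than that of Tef at rest (-1.79 and -1.16) and not after exercise (-0.93 and -1.02). These differences between genes were not tested.

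One library stood nearest to the vehicle side of its group for all 4 members. Knockout-labelled at rest replicate 3 had the highest Dbp (13.95 CPM), Tef (169 CPM) and Hlf (9.30 CPM) and the lowest Nfil3 (50.5 CPM) of its 5 libraries. Without it the genotype differences at rest were -2.73 for Dbp, -1.21 for Tef, -1.95 for Hlf and 1.48 for Nfil3 on the log2 scale. The library was picked for standing nearest to vehicle, so larger differences without it follow from that choice.

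Genes upstream of the 4 factors were described from fixed lists. Of 11 genes of the E-box arm, 6 were called lower and 3 higher in knockout-labelled muscle at rest. Over all genes tested these shares were 2.06% and 1.8%. The list's median log2 fold change was -0.66, beside 0.01 for all genes, and this median does not depend on the size of the Npas2 value. The lower ones were Per2 (log2 fold change -1.11), Per3 (-1.41), Cry2 (-0.66), Bhlhe40 (-1.25), Bhlhe41 (-0.53) and Ciart (-2.33), which encode repressors of the loop. The higher ones were Clock (1.34), Cry1 (0.52) and Npas2, whose resting libraries held 0 to 3 counts in vehicle and 25 to 34 in knockout-labelled muscle. Bhlhe41 lost its call in 6 of 10 fits that left out 1 library (adjusted p up to 0.129). The promoters of Ciart, with 3 E-boxes, and of Per1, Cry1 and Bhlhe41 held that element among the 9 genes of this list with a promoter in the table.

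Of the REV-ERB and ROR genes, which act on Nfil3, 4 were followed, 3 of them were tested and 1 was called at rest. That call was lower, as for 2.06% of all genes. Nr1d2, which encodes the repressor REV-ERB beta, fell from 87.8 ± 13.3 to 31.9 ± 7.83 CPM (SD, n = 5 each; log2 fold change -1.46, edgeR adjusted p 1.65e-05). Nr1d1, which encodes REV-ERB alpha, stood at 40.9 ± 5.5 and 40.1 ± 5.09 CPM and was not called (adjusted p 0.956). Rora (-0.31), which encodes an activating receptor, was not called at rest either. After exercise Nr1d2 (-1.60) and Rora (-0.59, adjusted p 0.0183) were lower, the latter not called without vehicle after exercise replicate 2 (adjusted p 0.0578). For exercise in vehicle edgeR called none of Nr1d1 (-0.26), Nr1d2 (0.12) and Rora (0.25). Their part in the Nfil3 rise was not tested.

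Among clock genes known to hold D-boxes, 7 of 8 were tested, with 3 lower (Per2, Per3 and Nr1d2) and 1 higher (Cry1) at rest and a median of -0.81. Of all genes, 2.06% were called lower and 1.8% higher there. This list shares genes with both lists before it. Of the 7 genes of this list with a promoter sequence, only Per3 had one of the searched D-boxes in its window, 2 copies of TTATGTAA at -205 and -158. It stood at 28.4 ± 7.92 CPM in vehicle at rest, 18.4 ± 5.05 in vehicle after exercise, 10.7 ± 1.28 in knockout-labelled muscle at rest and 10.2 ± 2.33 after exercise (mean ± SD, n = 5 each). Its difference by genotype was called in both states (edgeR adjusted p 1.76e-04 and 0.0167).

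Of 14 genes known as PAR factor outputs in liver, kidney or brain, 9 had enough counts in muscle. At rest 2 of them were called, both lower, where 2.06% of all genes were. The median was 0.01, equal to that of all genes. Ces1d, a carboxylesterase gene whose family members can share reads, fell from 34.3 ± 10.4 to 3.65 ± 3.23 CPM (SD, n = 5 each; log2 fold change -3.26, edgeR adjusted p 1.02e-04). Usp2, a ubiquitin protease gene of the clock, fell from 162 ± 19.4 to 101 ± 9.57 CPM (-0.67, adjusted p 0.00138), and rose with exercise in vehicle (0.79, adjusted p 0.00179). Summed markers of fat cells, which also express carboxylesterases, ran from 59.9 to 120 CPM in resting vehicle libraries and from 61.1 to 170 CPM in resting knockout-labelled ones, and their part in this was not tested. Pdxk, the pyridoxal kinase gene that the PAR factors are known to drive in brain, had a log2 fold change of -0.37 at rest (edgeR adjusted p 0.746). Alas1 (0.01) and Por (0.04), genes of haem synthesis and of electron transfer to cytochromes P450, were not called either.

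The C/EBP genes encode basic leucine zipper relatives that can bind similar sequences. Of 6, 5 were tested, and edgeR called none by genotype in either state (0 and 2 of 5 at an unadjusted p under 0.05, where all genes gave 14.6% and 19.4%), with medians of -0.21 and -0.32. Cebpb rose with exercise in vehicle from 92.0 ± 9.6 to 161 ± 30.1 CPM (SD, n = 5 each; log2 fold change 0.80, edgeR adjusted p 0.0219), a call lost in 5 of 10 fits that left out 1 library (adjusted p up to 0.0820). Genes responsive to CREB, the factor that binds the cAMP response element, were all 8 tested. In vehicle 4 of 8 were called higher with exercise (Sik1 2.77, Crem 1.10, Nr4a1 1.37 and Nr4a2 4.97 on the log2 scale), where 0.605% of genes were. All 8 had higher fitted values, each at an unadjusted p under 0.05, with a median of 1.43 beside 0.00 for all genes. Sik1 went in vehicle from 11.4 ± 3.51 to 78.1 ± 20.9 CPM and Nr4a2 from 0.568 ± 0.565 to 18.0 ± 8.25 CPM (SD, n = 5 each). In knockout-labelled muscle all 8 also had higher fitted values after exercise (median 0.72), with none called. There 5 of 8 were at an unadjusted p under 0.05, beside 4.71% of all genes. None of the 8 was called by genotype at rest by edgeR (1 of 8 at an unadjusted p under 0.05, beside 14.6% of all genes). After exercise 3 of them, Sik1, Nr4a1 and Nr4a2, were called lower in knockout-labelled muscle, where 3.75% of genes were. The call of Nr4a1 was lost in 3 of 10 fits that left out 1 library (edgeR adjusted p up to 0.0648). The part of the CREB-responsive genes in the Nfil3 changes was not tested. Of 8 glucocorticoid-responsive genes, 1 was called for exercise in vehicle (Mt2, log2 fold change 3.02) and 0 in the other 4 contrasts. In vehicle 7 of the 8 had higher fitted values after exercise (median 0.51), 6 of them at an unadjusted p under 0.05, beside 8.92% of all genes.

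**Figure D5:**
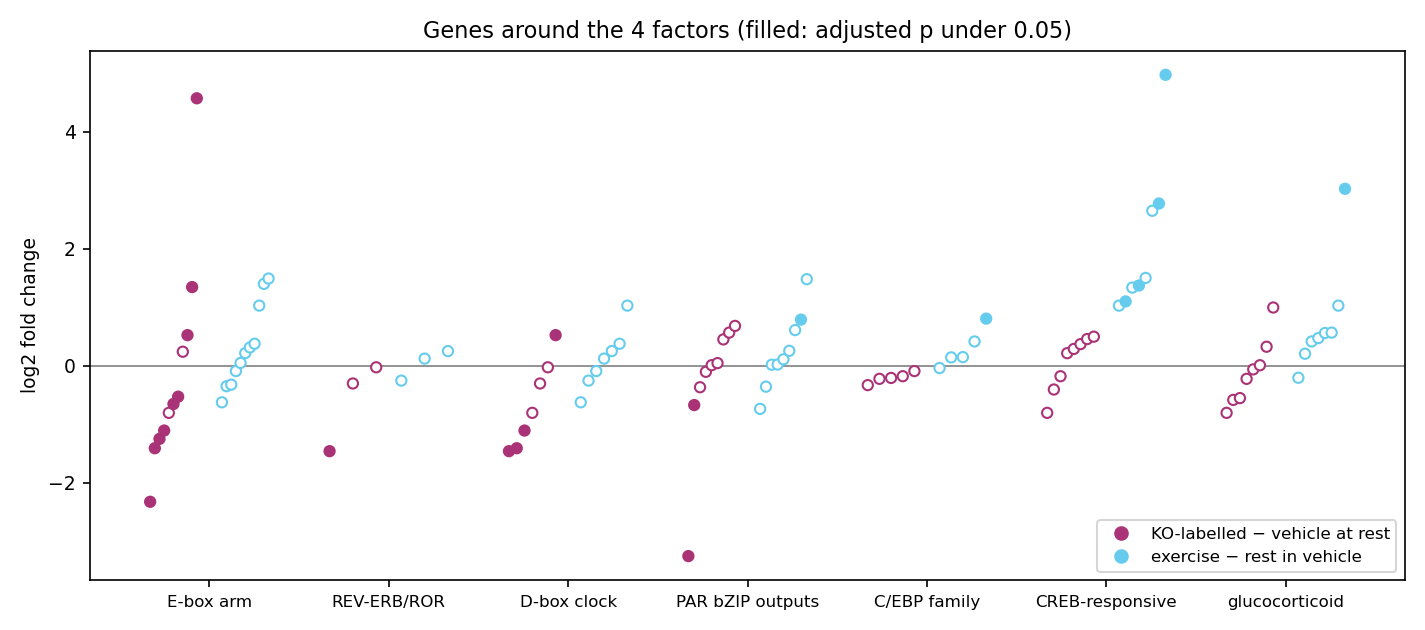
Fitted log2 fold changes (linear axis) of the genes of 7 lists around the 4 factors, by genotype at rest and by exercise in vehicle; filled points passed an adjusted p of 0.05. The E-box arm holds the most filled points by genotype, 9 of 11, with Npas2 topmost from 0 to 3 counts per vehicle library, and the CREB-responsive list the most by exercise, 4 of 8.

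The genes of most like pattern were sought for each member, by the smallest root mean square difference between mean-centred log2 CPM profiles over the 20 libraries, among 11722 candidates. Nearest to Dbp were Aebp1 (0.24), Car3 (0.30), Mylk4 (0.43), Slc25a30 (0.47) and Sh2d7 (0.51). Nearest to Tef were Wnk2 (0.12), Clip1 (0.15), Sphk2 (0.16), Slc6a9 (0.19) and Herpud1 (0.20). Hlf had Tef itself as its nearest gene (0.32), then Wnk2 (0.33), Nkain1 (0.34), Acvr1b (0.39) and Per3 (0.40). Nearest to Nfil3 were Sdc4 (0.40), Fgfr3 (0.51), Syn2 (0.52), Gramd4 (0.52) and Pdk4 (0.53). Sdc4, a syndecan gene, had log2 fold changes of 0.82 by genotype at rest, 0.08 by genotype after exercise, 1.04 for exercise in vehicle and 0.31 for exercise in knockout-labelled muscle, beside 1.37, 0.12, 1.72 and 0.47 for Nfil3. The measure is smaller for genes that vary less, so distances are best read within a member.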

How the data were processed

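RNA was measured by sequencing in 20 gastrocnemius libraries. The authors deposited 1 table of whole-number counts per gene symbol, 53311 rows and 1 column per sample. Per the submitters' processing notes, which give no roles, Partek, STAR 2.7.8a and DESeq2 were used with the builds mm10 and GRCm39. The counting program, its strandedness and the annotation are not given in the sources used here. Groups and replicate numbers came from the sample titles, and nothing says which animals the libraries came from, so p-values measure the spread between these samples.

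Totals ran from 8045154 to 11269812 counts. Genes were kept by filterByExpr (minimum 10 counts), which left 13560 genes with 99.83% of counts. A quasi-likelihood model of edgeR 4.0.16 (TMM scaling, robust dispersions, 1 mean per group, all 20 samples, R 4.3.3) gave 5 contrasts, adjusted by Benjamini-Hochberg over all genes, with 0.05 as the threshold. SE came from the F statistics, and log2 CPM used a prior count of 2. Repeated symbols (106 rows) stayed separate. No pair of libraries in a group agreed within sampling noise (chi-square per degree of freedom from 4.04). Alternatives were other scalings, DESeq2 1.42.0, limma-voom (limma 3.58.1), other filters, fewer groups, a slow-fibre covariate, a replicate block, each library left out, and an exact permutation test of 5 against 5 (smallest p 0.00794). The fit was tested on simulated data first.

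Of the table's symbols 97.06% were in GENCODE M21, used for exon lengths and overlaps. Promoters came from RefSeq (GRCm38.p6), where all 4 members matched. The named genes were the 4 members, Arntl, genes whose exons overlap a member, the 5 genes of most like pattern per member, and called genes of the fixed lists. Uncalled list genes named with a value (Nr1d1, Pdxk, Alas1 and Por) were chosen after their values were seen. A further gene is not reported here. The members and lists were chosen with earlier results of these data known.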

Additional observations from a re-analysis of the deposited data

How the results depend on the processing

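The 7 called genotype differences of the members (4 at rest, 3 after exercise) and the Nfil3 rise with exercise in vehicle kept direction under all 22 alternatives each, and the call under all of them, where the exact permutation test is unadjusted and cannot go below 0.00794. Hlf for exercise in vehicle was also called with library size only (-0.67), DESeq2 (-0.64), limma-voom (-0.64), no filter (-0.64), the slow-fibre covariate (-0.68) and the exact permutation test (-0.64, unadjusted p 0.0159), and ran from -0.75 to -0.57 with 1 library left out. Hlf stayed uncalled for exercise in vehicle in 14 of the 22 alternatives. The exact test, unadjusted, also passed for Dbp with exercise in vehicle (-0.28, p 0.00794) and Nfil3 with exercise in knockout-labelled muscle (0.48, p 0.0238). The Nfil3 interaction passed with DESeq2 (-1.25) and ran from -1.36 to -1.14 with 1 library left out. For exercise in knockout-labelled muscle the sign turned with the slow-fibre covariate for Dbp (0.042) and Tef (-0.0077), and values with 1 library left out ran from -0.11 to 0.052 for Dbp and from -0.035 to 0.069 for Tef. The count of genes called moved with the slow-fibre covariate to 845 at rest, 1415 after exercise, 248 for exercise in vehicle and 6 in knockout-labelled muscle, and with only both groups fitted to 567 after exercise and 61 for exercise in vehicle. DESeq2 called 195 genes for exercise in vehicle and 3 for the interaction. With 1 library left out, counts ran from 52 to 135 for exercise in vehicle and from 0 to 1 for the interaction. The cause of these moves was not tested. The fits of fewer libraries also had fewer samples, and the part of this was not tested either.

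The deviations of same-numbered libraries of different groups correlated over 0.1 in 15 of 30 pairs (median 0.0886), against 39 of 120 pairs with other numbers (median -0.0174). These values do not decide whether same numbers mark paired samples, and the numbers were not taken as pairs in the main fit. With the replicate block, 518 genes were called at rest, 824 after exercise, 100 for exercise in vehicle and 0 in the other 2 contrasts, and no call of a member changed (Dbp -2.66, Tef -1.16, Hlf -1.78 and Nfil3 1.38 at rest). The exact test and the fit of only both groups were not run for the interaction, and DESeq2 was run without independent filtering. Depth limits Hlf most, with 38 counts in its lowest library.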

Other observations

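Within groups, Hlf and Nfil3 were often in opposite order. Of the 10 pairs of libraries in each group, the library with more Nfil3 had less Hlf in 8 pairs in vehicle at rest, 9 in vehicle after exercise, 7 in knockout-labelled muscle at rest and 9 after exercise, which is 33 of 40 pairs. For Tef and Nfil3 the count was 25 of 40 and for Dbp and Nfil3 24 of 40. In vehicle after exercise the order of Dbp was the full reverse of that of Nfil3, 10 of 10 pairs: Dbp stood at 64.9, 64.4, 63.5, 58.7 and 56.0 CPM in the libraries with 75.7, 79.1, 97.5, 106 and 125 CPM of Nfil3. The other groups had 6 (vehicle at rest), 4 and 4 (knockout-labelled at rest and after exercise) of 10 such pairs. Among the activators, Tef and Hlf had the same order in all 10 pairs of knockout-labelled libraries at rest, and were opposed in 5 of 10 pairs after exercise in knockout-labelled muscle, and in 12 of 40 pairs over all groups. These counts were made after the values were seen. Pairs share libraries and scaling. How many other genes ran as opposite to Nfil3 was not counted, and the pattern was not tested.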
